A study of Rattus norvegicus with 11 samples.

Results

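RNA from defects filled with a gelatin methacryloyl hydrogel (GelMA) was compared with RNA from defects left without a scaffold (NC), over all genes of the deposited count table. The libraries were chosen by their labels alone: 3 GelMA and 3 NC libraries, 6 of the 11 in the series, with 23781 genes listed and 18049 tested. All animals were Sprague Dawley rats, given as 4 months old in the labels, with a composite suture and bone defect drilled across the coronal suture of the skull. By the labels, NC and GelMA differed in whether the hydrogel, made from pig skin gelatin, was placed in the defect. Tissue that had grown in the defect was taken after 6 weeks, digested with collagenase, freed of red cells, fixed, permeabilized and sorted for Cd45- cells. The remaining libraries came from defects with a chitosan (CTS) or polylactic acid (PLA) scaffold and entered the model to estimate the spread of each gene. Nothing in the labels says that the libraries of a group came from separate animals, so the p-values measure the spread between these samples, which may be technical.

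A cranial suture is a strip of fibrous mesenchyme between bone plates, and a defect across it can close with bone or fill with fibrous tissue. An implanted biomaterial is met by granulocytes first and later by macrophages and lymphocytes, and the cytokines of these cells act on fibroblasts and bone cells around it. CD45, the phosphatase encoded by Ptprc, lies on the surface of nearly all white blood cells, so a Cd45- sort is meant to keep mesenchymal, endothelial and other non-blood cells.

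The sort label was checked first, against Ptprc and 20 pan-leukocyte genes. Ptprc stood at 1460, 336 and 1167 CPM (counts scaled to a common, TMM-adjusted library size) in NC 1, NC 2 and NC 3 and at 1347, 1138 and 1259 CPM in GelMA 1, GelMA 2 and GelMA 3. On the length-scaled FPKM values of the authors it lay above 94.7% of the tested genes in NC 2 and above 98.4% to 98.8% of them in the other 5 libraries. All 20 pan-leukocyte genes were measured and none was called, with summed shares of 0.226% to 1.34% of counts in NC and 0.882% to 0.941% in GelMA. The data thus go against the label, and the libraries are described below as RNA of the sorted material, with no cell type assigned. In such bulk RNA, fewer cells of a type and less RNA per cell cannot be told apart.

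The libraries held 22509898 to 27522199 counts in NC and 29108144 to 30587865 in GelMA. NC 2 stood apart from the other NC libraries. Col1a1, Col1a2 and Col3a1, which encode the chains of the main fibrillar collagens, took 16.9% of its counts, against 0.824% in NC 1, 2.75% in NC 3 and 2.46% to 2.62% in GelMA. S100a8 and S100a9, the alarmins of neutrophils, took 0.565% of the counts in NC 2, against 5.62% and 3.99% in NC 1 and NC 3 and 0.444% to 1.21% in GelMA. The correlation of log2 CPM across genes was 0.855 between NC 1 and NC 2, 0.912 between NC 2 and NC 3 and 0.924 between NC 1 and NC 3, and 0.969 to 0.977 within GelMA. Genes are not independent replicates, and the values are a description of the libraries. List counts and the fold changes of tested genes are therefore given, for the most part, with all 3 NC libraries and again without NC 2.

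A gene was called higher or lower in GelMA when its adjusted p was under 0.05 and its fold over 2 (a log2 fold change beyond 1). By that rule 1488 genes were called, 8.24% of those tested, of which 908 (5.03%) were higher in GelMA and 580 (3.21%) lower. With NC 2 left out, 1296 genes (7.18%) were higher and 1195 (6.62%) were lower. Of the genes called with all libraries, 823 of 908 higher genes (90.6%) and 505 of 580 lower genes (87.1%) were called again without NC 2, and none was called in the opposite direction. Of the 85 higher genes that lost the call, 30 did so on p and 55 on fold, and of the 75 lower genes 47 did so on p and 28 on fold. Fold changes moved by over 1.5 times in 56 higher and 72 lower genes. The other NC libraries mattered too: 984 genes (5.45%) were higher and 1070 (5.93%) lower without NC 1, and 688 (3.81%) and 352 (1.95%) without NC 3. Of the genes called with all libraries, 1328 were called again without NC 2, 1233 without NC 1 and 914 without NC 3. Leaving out a GelMA library took more calls away, to 469 to 587 higher genes and 128 to 200 lower ones.

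**Figure D1:**
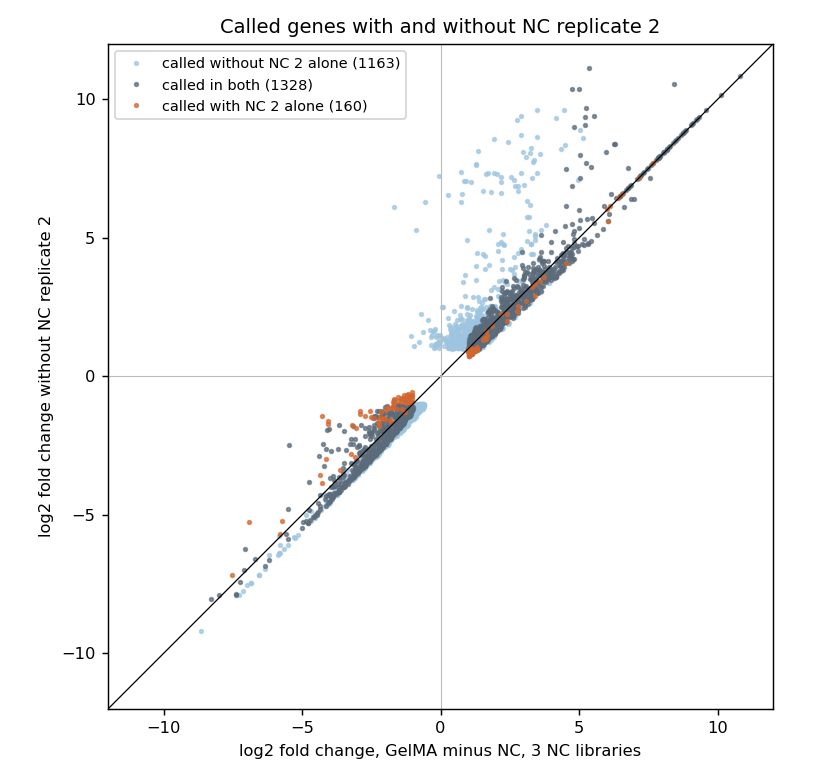
Each point is a gene called with all libraries, without NC 2, or both; the x axis is the log2 fold change of GelMA over NC with 3 NC libraries and the y axis the same without NC 2, with the line of equality drawn. The plot holds 1328 genes called in both, 1163 called without NC 2 alone, which include a cloud above the line at positive values, and 160 called with NC 2 alone. Genes far off the line among those called in both include Smpd3 (-4.11 and -1.94) and Cxcl6 (5.98 and 8.08).

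For the genes called higher, NC 2 lay on either side of its neighbours: it was the NC library nearest to GelMA for 278 genes, the farthest for 378 and between NC 1 and NC 3 for 252. Among genes called lower it was the nearest for 321, the farthest for 195 and in between for 64. NC 2 reached into or past the range of GelMA in 1 higher gene and 46 lower genes. The libraries of the groups did not overlap in 907 of the 908 higher and 529 of the 580 lower genes, where 19.3% of all tested genes lay wholly higher in GelMA and 11.2% wholly lower.

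Genes of T and natural killer cells formed the largest rise. Of 24 genes tested, 21 were higher, none was lower, and the median log2 fold change was 3.66, against -0.05 over all 18049 genes. The list held the T cell receptor complex (Cd3d, Cd3e, Cd3g, Cd247), the coreceptors Cd4, Cd8a and Cd8b, and the cytotoxic genes Gzmb and Prf1 among its rises, while Gzma, Nkg7 and Ncr1 were not called. Its mean log2 CPM was 2.07, 2.25 and 2.65 in NC 1, NC 2 and NC 3 and 5.67, 5.60 and 5.85 in GelMA 1, GelMA 2 and GelMA 3, so NC 2 lay between the other NC libraries. The same 21 genes were called without NC 2, with a median of 3.59, and 21 and 20 were called without NC 1 and NC 3. The list took 0.0160% to 0.0294% of counts in NC and 0.181% to 0.216% in GelMA.

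Cd2, an adhesion receptor of T and natural killer cells, was at 5.73, 4.97 and 6.89 CPM in NC and at 107, 99.8 and 130 CPM in GelMA. The log2 fold change of Cd2 was 4.25 (SE 0.32, adjusted p = 0.000265), and 4.15 without NC 2. Tbx21, the transcription factor of type 1 helper T cells, rose from 2.08 to 3.35 CPM in NC to 31.8 to 33.5 CPM in GelMA (log2 fold change 3.68, SE 0.35, adjusted p = 0.000463, and 3.56 without NC 2). Cxcr6, a chemokine receptor of effector T cells, was at 0, 0.813 and 0.995 CPM in NC and at 33.5, 32.9 and 42.9 CPM in GelMA, with log2 fold changes of 5.90 with NC 2 and 6.14 without it. The groups of all 3 genes lay far apart, with NC 2 no nearer to GelMA than NC 3 for Tbx21 and Cxcr6.

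Receptors that start or restrain T cell activation rose with them. Of 21 checkpoint and costimulation genes tested, 14 were higher and none lower (median 2.39), and the same 14 were called without NC 2 (median 2.46), where Lgals9 was called lower. Ctla4, the inhibitory receptor of regulatory and activated T cells, was at 1.36, 2.89 and 2.18 CPM in NC and at 98.5, 87.5 and 95.8 CPM in GelMA, a log2 fold change of 5.45 (SE 0.50, adjusted p = 0.00045), and of 5.72 without NC 2. Tigit, another inhibitory receptor, stood at 2.08, 0.587 and 1.07 CPM in NC and 38.7, 29.9 and 31.3 CPM in GelMA (log2 fold change 4.73, SE 0.60, and 4.40 without NC 2). Btla rose by 4.58 on the log2 scale, and by 4.18 without NC 2, and Pdcd1, Lag3, Icos and Cd274 were also among the 14. Tnfsf4, the ligand of OX40, had 0 counts in all 3 NC libraries and 230 in GelMA, which puts it at least 54.8-fold higher, taking 3 counts over the NC group as the floor.

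Genes of B cells rose in large part. Of 21 tested, 13 were higher and none lower (median 2.92), with the surface, signalling and transcription factor genes Cd79a, Cd79b, Ms4a1, Cd22, Blk, Pax5 and Pou2af1 among them. The genes of precursor B cells in the list, Vpreb1, Vpreb3, Igll1, Rag1, Rag2 and Dntt, were not called with all libraries, nor were Ebf1 and Fcer2. Without NC 2 the same 13 were higher, the median was 2.51, and Vpreb3, Rag1 and Dntt, which act in the building of B cell receptors, were called lower. The mean log2 CPM of the list was 2.26, 0.94 and 1.89 in NC and 3.64, 3.39 and 3.47 in GelMA, with NC 2 the farthest from GelMA.

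Ms4a1, the surface antigen CD20, had the largest rise among genes that carried a symbol and averaged at least 3 on the log2 CPM scale. It stood at 1.87, 0.678 and 0.498 CPM in NC and at 86.0, 64.0 and 54.4 CPM in GelMA, a log2 fold change of 6.07 (SE 0.74, adjusted p = 0.00104), and of 5.86 without NC 2. Cd22, an inhibitory receptor of B cells, was at 7.21, 9.81 and 8.92 CPM in NC and at 79.3, 63.1 and 53.6 CPM in GelMA (log2 fold change 2.92, SE 0.20, and 3.02 without NC 2). Cd79a, a signalling chain of the B cell receptor, rose by 2.69 (SE 0.29, adjusted p = 0.000639) and by 2.51 without NC 2. Fcrl5, an Fc receptor-like gene of B cells, rose by 5.55 with NC 2 and by 5.53 without it.

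Antigen presentation genes moved almost as a block. Of 20 genes of dendritic cells and of major histocompatibility complex (MHC) class II, 17 were higher and none lower (median 2.38), and the same 17 were called without NC 2 (median 2.65). They held all the class II genes of the list, which are Cd74, the RT1-B and RT1-D chains, the peptide loading genes RT1-DMa, RT1-DMb, RT1-DOa and RT1-DOb, and Ciita, the master regulator of class II transcription. The dendritic cell genes Flt3, Xcr1, Clec9a, Ccr7, Siglech, Cd80 and Cd86 completed the 17, and Batf3, Zbtb46 and Itgax were not called. On average the log2 CPM of the list was 3.30, 3.57 and 3.40 in NC and 5.66, 5.84 and 5.98 in GelMA.

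Siglech, a receptor of plasmacytoid dendritic cells, was at 1.44, 1.76 and 1.38 CPM in NC and 42.1, 35.4 and 34.3 CPM in GelMA (log2 fold change 4.61, SE 0.36, adjusted p = 0.000265, and 4.72 without NC 2). RT1-DMa, which helps to load peptides, stood at 29.2, 23.5 and 23.0 CPM in NC and 59.7, 78.0 and 68.6 CPM in GelMA. For RT1-DMa the log2 fold change was 1.45 (SE 0.15, adjusted p = 0.000561), and 1.40 without NC 2. Neither gene had overlapping groups, and NC 2 was the NC library nearest to GelMA for Siglech but not for RT1-DMa.

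Class II promoters are known to carry a shared module with an X box, bound by RFX factors, and a Y box, bound by NF-Y, onto which Ciita assembles. The 150 bases before the annotated start are shown for the 4 class II chain genes RT1-Da, RT1-Db1, RT1-Ba and RT1-Bb, because they rose together (RefSeq, build GRCr8, 5′ to 3′ on the gene's strand). Capitals mark the letters TGATTGG of the Y box and TAGCAAC of the X box core, searched on both strands after the values had been seen. The search letters do not overlap.
RT1-Da, chr20:4515265-4515414, plus strand: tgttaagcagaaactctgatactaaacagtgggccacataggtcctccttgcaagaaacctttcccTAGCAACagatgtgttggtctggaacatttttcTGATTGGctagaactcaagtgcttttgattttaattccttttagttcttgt
RT1-Db1, chr20:4560163-4560312, minus strand: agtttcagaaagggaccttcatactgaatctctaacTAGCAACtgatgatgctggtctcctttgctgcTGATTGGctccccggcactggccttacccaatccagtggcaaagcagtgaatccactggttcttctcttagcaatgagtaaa
RT1-Ba, chr20:4576907-4577056, plus strand: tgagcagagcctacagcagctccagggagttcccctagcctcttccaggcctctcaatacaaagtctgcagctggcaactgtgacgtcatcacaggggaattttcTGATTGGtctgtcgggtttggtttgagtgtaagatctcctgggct
RT1-Bb, chr20:4604119-4604268, minus strand: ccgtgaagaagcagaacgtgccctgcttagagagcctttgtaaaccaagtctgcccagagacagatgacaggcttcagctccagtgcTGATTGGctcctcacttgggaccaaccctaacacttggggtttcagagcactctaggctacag

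The Y box letters begin 51, 82, 45 and 63 bases before the start of RT1-Da, RT1-Db1, RT1-Ba and RT1-Bb, and the X box letters 84 and 114 bases before that of RT1-Da and RT1-Db1. Of the 20 genes of the list, 17 matched a promoter, and the Y box letters stood in all 7 class II chain genes that matched. Over all 33469 promoters of the same length, 4.67% held the Y box letters, 1.84% the X box core and 0.114% both. RT1-Da, an alpha chain, was at 160, 387 and 166 CPM in NC and 1135, 1094 and 1037 CPM in GelMA, with NC 2 the NC library nearest to GelMA. The log2 fold changes of RT1-Da, RT1-Db1, RT1-Ba and RT1-Bb were 2.20, 2.40, 2.59 and 2.98 with NC 2 and 2.74, 2.57, 2.33 and 2.82 without it, and all 4 calls held in each fit that left out 1 library. A match is a description of letters and not a binding site, and binding was not measured here.

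Macrophage genes were the next to rise. Of 19 tested, 12 were higher and none lower (median 1.77), with Cd68, Adgre1, Csf1r, Cd14, Mertk, the C1q chains, Mrc1 and Msr1 among them. Without NC 2 the same 12 were called together with Cd163, a scavenger receptor for haemoglobin, and Apoe, a lipid carrier (14 of 19, median 1.66). Lyz2, Fcgr1a, Itgam, Ccr2 and Vsig4 were called in neither fit. The mean log2 CPM of the list was 4.50, 4.88 and 4.87 in NC and 6.59, 6.80 and 6.62 in GelMA, whereas its summed share of counts overlapped, at 0.440% to 1.22% in NC and 0.905% to 1.34% in GelMA.

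Adgre1, which encodes the macrophage antigen F4/80, had the smallest p of any list gene. It was at 13.2, 11.4 and 9.11 CPM in NC and at 286, 243 and 179 CPM in GelMA, a log2 fold change of 4.39 (SE 0.23, adjusted p = 4.59e-05), and of 4.41 without NC 2. Cd14, the coreceptor for bacterial lipopolysaccharide, was at 135, 101 and 109 CPM in NC and 344, 380 and 403 CPM in GelMA (log2 fold change 1.71, SE 0.17, and 1.63 without NC 2). Siglec1, a sialic acid receptor of tissue macrophages, rose by 4.82 (SE 0.58, adjusted p = 0.000921) with NC 2 and 5.25 without it, and Ms4a7, a macrophage membrane gene, by 4.99 with NC 2 and 6.01 without it. Mrc1, the mannose receptor that also takes up collagen fragments, stood at 21.9, 47.4 and 27.9 CPM in NC and 192, 223 and 155 CPM in GelMA. NC 2 was the NC library nearest to GelMA for Mrc1, and the log2 fold change was 2.55 with it and 2.93 without it.

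Genes of lipid-laden and foreign-body phagocytes moved less evenly. Of 19 tested, 6 were higher (Trem2, Gpnmb, Fabp5, Lipa, Ctsb and Abcg1) and 1, Cd9, was lower (median 0.30). Without NC 2 the median was 0.95, Abca1, a cholesterol exporter, was gained and Lipa was lost, and without NC 3 only 1 of the 19 was called higher. Abcg1, another cholesterol exporter, was at 18.8, 26.9 and 25.6 CPM in NC and 120, 113 and 122 CPM in GelMA (log2 fold change 2.31, SE 0.23, and 2.41 without NC 2). Cd9, a tetraspanin, was at 251, 361 and 292 CPM in NC and 111, 123 and 118 CPM in GelMA, a log2 fold change of -1.35 (SE 0.17), and of -1.20 without NC 2. Of 29 lysosome genes 5 were higher (Atp6v0d2, Lipa, Ctsb, Ctss and Ctsz) and none lower, and 2 of these, Ctsb and Ctss, were called without NC 2 and 1 without NC 3. Ctss, the protease that trims the class II invariant chain, was at 82.6, 62.2 and 69.3 CPM in NC and 474, 544 and 418 CPM in GelMA (log2 fold change 2.75, SE 0.24, adjusted p = 0.000429, and 2.66 without NC 2).

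**Figure D2:**
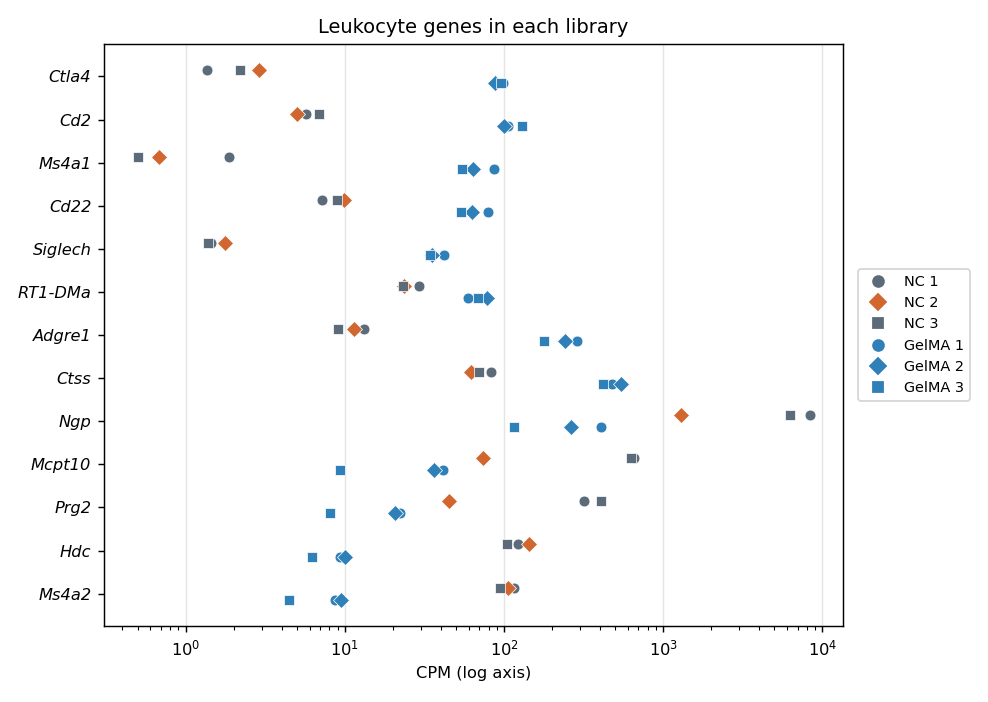
CPM of 13 leukocyte genes on a log axis, with NC libraries above and GelMA libraries below each gene's line, NC 2 in orange, and 1 point per library (some GelMA points overlap). Ctla4, Cd2, Ms4a1, Cd22, Siglech, RT1-DMa, Adgre1 and Ctss lie higher in every GelMA library than in any NC library, and Ngp, Mcpt10, Prg2, Hdc and Ms4a2 lower, with NC 2 nearest to GelMA for Ngp, Mcpt10 and Prg2.

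Among secreted signals, 14 of 37 cytokine genes and 13 of 31 chemokine genes were higher, with medians of 0.74 and 1.67. No cytokine was lower, and Cxcl14 was the 1 chemokine that fell. The cytokines were Il1a, Il1b, Il1rn, Tnf, Il10, Il18, Il23a, Ebi3, Il17a, Il17f, Ifng, Ifnb1, Csf3 and Tnfsf11, and all 14 were called without NC 2. That fit added Il33, Csf2, Il7, Tnfsf9 and Tnfsf13b, so 19 of 37 were higher with a median of 1.60, and 9 of 37 were higher without NC 3. Among chemokines Cxcl11 was lost without NC 2, Cxcl1, Cxcl9 and Cxcl13 were gained, and Ccl6 was called lower.

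Il1a, an alarm cytokine, was at 33.9, 23.3 and 40.7 CPM in NC and 342, 399 and 551 CPM in GelMA (log2 fold change 3.72, SE 0.27, adjusted p = 0.000265, and 3.53 without NC 2). Il17a, the cytokine of type 17 T cells, stood at 1.27, 0.587 and 0.459 CPM in NC and 40.4, 17.0 and 8.44 CPM in GelMA. The rise of Il17a was 4.82 on the log2 scale (SE 0.64, adjusted p = 0.0017) and 4.67 without NC 2, and the GelMA libraries differed among themselves more than for Il1a. Csf3, the growth factor of neutrophils, was at 4.71 to 6.19 CPM in NC and 28.1 to 49.9 CPM in GelMA (log2 fold change 2.85, and 2.94 without NC 2), although neutrophil genes were lower there, as described below. Ifnb1, encoding interferon beta, had 0 counts in NC and 41 in GelMA, at least 9.77-fold higher by the 3-count floor.

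Cxcl6, a chemokine that draws neutrophils, was at 0.339, 1.85 and 0 CPM in NC and at 48.2, 43.7 and 43.6 CPM in GelMA. Its log2 fold change was 5.98 (SE 0.94, adjusted p = 0.00419), and 8.08 without NC 2, the 1 NC library with more than 1 CPM. Ccl4 and Ccl5, chemokines that draw T cells and monocytes, rose by 4.12 (SE 0.45) and 3.75 (SE 0.44), and by 3.95 and 3.58 without NC 2. Cxcl14, a chemokine of fibroblasts and epithelia, was at 33.7, 22.5 and 58.7 CPM in NC and 5.62, 8.04 and 8.06 CPM in GelMA, a log2 fold change of -2.40, and of -2.67 without NC 2, that lost its call without NC 3 or any 1 of the GelMA libraries.

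Of 59 cytokine and chemokine receptors, 21 were higher, and Il13ra2, the decoy receptor for interleukin 13, was lower (median 0.63). The rises held the interleukin 2 receptor chains (Il2ra, Il2rb, Il2rg) and lymphocyte homing receptors such as Cxcr3, Cxcr5, Cxcr6, Ccr4, Ccr7 and Ccr8. All 21 were called without NC 2, where Ccr3, Il23r and Il4r were added and Cxcr2 and Il17ra were called lower. Ccr8, a receptor of regulatory T cells in tissues, was at 1.02, 0.316 and 0.574 CPM in NC and 25.4, 20.8 and 19.5 CPM in GelMA (log2 fold change 5.09, SE 0.76, and 4.78 without NC 2). Tnfrsf14, a receptor for lymphotoxin-like ligands and for Btla, was at 7.38, 4.43 and 7.58 CPM in NC and 84.8, 74.7 and 95.4 CPM in GelMA (log2 fold change 3.71, SE 0.29, and 3.50 without NC 2).

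Sensors and signalling genes upstream of cytokines changed in part. Of 30 Toll-like receptor and inflammasome genes 11 were higher and none lower (median 0.79): Cd14, Tlr6, Tlr7, Tlr8, Tlr9, Irak2, Nlrp1a, Pycard, Casp1, Casp4 and Nod2. Without NC 2, 9 of these and 2 further genes, Aim2 and Gsdmd, were higher, and Tlr4, Tlr5 and Tirap were lower. Tlr8, a receptor for single-stranded RNA, was at 10.99, 5.69 and 9.26 CPM in NC and 50.1, 61.6 and 65.7 CPM in GelMA (log2 fold change 2.77, SE 0.27, and 2.55 without NC 2). Of 25 NF-kB genes, 4 were higher (Nfkbid, Tnfaip3, Traf1 and Birc3) and none lower (median 0.72). Without NC 2, Nfkbid was lost, Map3k14 was gained and the median was 0.69. Tnfaip3, the inhibitor known as A20, was at 633, 565 and 592 CPM in NC and 1349, 1489 and 1758 CPM in GelMA, a rise of 1.36 (SE 0.18, adjusted p = 0.00173), and of 1.32 without NC 2.

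Interferon response genes depended on which GelMA library was looked at as well as on NC 2. Of 33 tested, 11 were higher and none lower (median 1.26). Without NC 2, 17 were higher (median 1.67), 9 of them shared with the first fit, and Oasl and Irf7 lost their calls, while 6 and 5 were higher without NC 1 and NC 3. On average the log2 CPM of the list was 4.12, 4.58 and 4.17 in NC and 4.83, 5.81 and 6.38 in GelMA, so GelMA 1 lay nearest to NC. Irf7, the master regulator of type I interferons, was at 25.0, 21.5 and 14.4 CPM in NC and at 26.6, 97.4 and 155 CPM in GelMA (log2 fold change 2.20, adjusted p = 0.0343, and 0.0534 without NC 2). Gbp5, a guanylate-binding protein induced by interferon gamma, was at 33.4, 20.5 and 20.0 CPM in NC and 131, 150 and 172 CPM in GelMA (log2 fold change 2.62, SE 0.35, adjusted p = 0.00182, and 2.50 without NC 2).

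Among 18 effector enzymes of macrophages and of eicosanoid synthesis, 8 were higher (Nos2, Arg1, Acod1, Ido1, Slc7a2, Odc1, Tbxas1 and Pla2g7), and Ptgs1 and Lta4h were lower (median 0.40, and 1.18 without NC 2). Without NC 2 Tbxas1 lost its call, Ptgs2 gained one, and the leukotriene genes Alox5 and Alox5ap were also lower. Slc7a2, an arginine transporter, was at 29.7, 14.5 and 23.2 CPM in NC and 99.8, 142 and 202 CPM in GelMA (log2 fold change 2.72, SE 0.33, and 2.48 without NC 2). Ido1, the enzyme that degrades tryptophan, had 0 counts in NC and 103 in GelMA, at least 24.5-fold higher by the same floor. Of 24 complement genes, 6 were higher (C1qa, C1qb, C1qc, C6, C3ar1 and Cfi) and none lower. The median of the complement list was -0.10 with NC 2 and 0.76 without it, and the 6 calls held in both fits.

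Neutrophil genes were the largest group of falls with all libraries. Of 18 tested, 13 were lower and none higher (median -2.69): the primary granule genes Mpo, Elane, Prtn3 and Ctsg, the later granule genes Camp, Ngp and Mmp8, the maturation factor Cebpe, and Ms4a3, Padi4, Fpr1, Fpr2 and Retnlg. The mean log2 CPM of the list was 9.36, 6.68 and 9.01 in NC and 6.60, 6.51 and 5.36 in GelMA. NC 2 thus lay beside GelMA 1 and GelMA 2, and NC 1 and NC 3 stood apart from GelMA. Without NC 2 the median was -3.15 and 17 of 18 were lower, with S100a8, S100a9, Lcn2 and Cxcr2 added, and 10 and 6 were lower without NC 1 and NC 3. Csf3r, the receptor for Csf3, was the 1 gene called in neither fit. The list took 7.81%, 0.814% and 5.68% of counts in NC and 1.48%, 1.44% and 0.597% in GelMA.

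Ngp, a granule protein of maturing neutrophils, was at 8325, 1305 and 6300 CPM in NC and 409, 265 and 115 CPM in GelMA. It had a log2 fold change of -4.33 (SE 0.85, adjusted p = 0.0118) and of -4.80 without NC 2 (adjusted p = 0.00278), and the call was lost without GelMA 2 or GelMA 3. Ctsg, which encodes cathepsin G, was at 907, 171 and 956 CPM in NC and 96.9, 114 and 46.3 CPM in GelMA, a log2 fold change of -2.99, and of -3.44 without NC 2, lost without GelMA 1 or GelMA 3. S100a8 was at 25019, 3236 and 17251 CPM in NC and 5146, 5339 and 1810 CPM in GelMA, with NC 2 inside the GelMA range. Its log2 fold change was -1.89 (adjusted p = 0.0867) with NC 2 and -2.37 (adjusted p = 0.00372) without it, and S100a9 behaved likewise, at -2.01 (adjusted p = 0.066) and -2.48 (adjusted p = 0.00143). Olfm4, a secondary granule gene of some neutrophils, was at 438, 329 and 902 CPM in NC and 47.7, 28.9 and 29.1 CPM in GelMA, and its call held in all 11 fits that each left out 1 library (log2 fold change -3.98, SE 0.56, adjusted p = 0.00224, and -4.25 without NC 2).

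Eosinophil granule genes followed neutrophil genes. Of 8 tested, Epx, Prg2, Prg3 and Alox15 were lower and Siglec5, a sialic acid receptor, was higher (median -2.68, and -3.13 without NC 2). The chemokine receptor Ccr3 also went up, by 1.82 (adjusted p = 0.0602), and was called higher without NC 2 (1.39, adjusted p = 0.0294). Prg2, the major basic protein, was at 319, 45.0 and 405 CPM in NC and 22.3, 20.6 and 8.09 CPM in GelMA, a log2 fold change of -3.91 (SE 0.83, adjusted p = 0.0166), and of -4.41 without NC 2. Siglec5 was at 9.04, 12.1 and 23.0 CPM in NC and 135, 201 and 233 CPM in GelMA, a rise of 3.69 (SE 0.76, adjusted p = 0.015), and of 3.56 without NC 2. The groups were separate for both genes, and the calls were lost without GelMA 2 or GelMA 3, and for Prg2 also without GelMA 1. Of the 8 genes, 2 were lower without NC 1 and 1 without NC 3.

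Mast cell and basophil genes had the lowest median of any list, -3.54, with 8 of 12 lower and none higher: Cpa3, Fcer1a, Ms4a2, Hdc, Gata2, Mcpt8, Mcpt2 and Cma1. The same 8 were called without NC 2, with a median of -2.78. Here NC 2 lay on the far side of the other NC libraries, with mean log2 CPM of 4.56, 5.86 and 4.68 in NC and 2.44, 2.45 and 2.20 in GelMA. Some of the genes stood in NC 2 as in the other NC libraries, and others stood higher there. Hdc, the enzyme that makes histamine, was at 122, 143 and 105 CPM in NC and 9.34, 10.05 and 6.22 CPM in GelMA, a log2 fold change of -3.85 (SE 0.30, adjusted p = 0.000265), and of -3.73 without NC 2. Ms4a2, the beta chain of the high affinity IgE receptor, was at 116, 106 and 94.5 CPM in NC and 8.68, 9.41 and 4.44 CPM in GelMA, a log2 fold change of -3.81 in both fits.

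Proteases of mast cell granules were among those higher in NC 2. Cpa3, the mast cell carboxypeptidase, was at 32.0, 495 and 56.3 CPM in NC and 9.64, 14.4 and 11.3 CPM in GelMA, with a log2 fold change of -4.04 (SE 0.92, adjusted p = 0.023), and of -1.91 (adjusted p = 0.00761) without NC 2, and the call was lost without any 1 of the GelMA libraries. Mcpt1l1, a relative of mast cell protease 1, was at 47.7, 1611 and 114 CPM in NC and 24.5, 31.2 and 34.4 CPM in GelMA. Its log2 fold change was -4.30 (adjusted p = 0.038) with NC 2 and -1.43 (adjusted p = 0.0533) without it. The call held in only 2 of the 11 fits that each left out 1 library, those without NC 1 and without NC 3. Tph1, which makes serotonin in mast cells, was at 3.56, 74.6 and 35.9 CPM in NC and 1.20, 1.49 and 3.53 CPM in GelMA, a log2 fold change of -4.19 with NC 2 and of -3.25 without it, lost without GelMA 1 or GelMA 2. Mcpt10, another gene named as a mast cell protease, went with the neutrophil genes instead, at 661, 73.4 and 633 CPM in NC and 41.1, 36.6 and 9.26 CPM in GelMA, a log2 fold change of -3.98, and of -4.48 without NC 2, that was lost without GelMA 2 or GelMA 3.

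**Figure D3:**
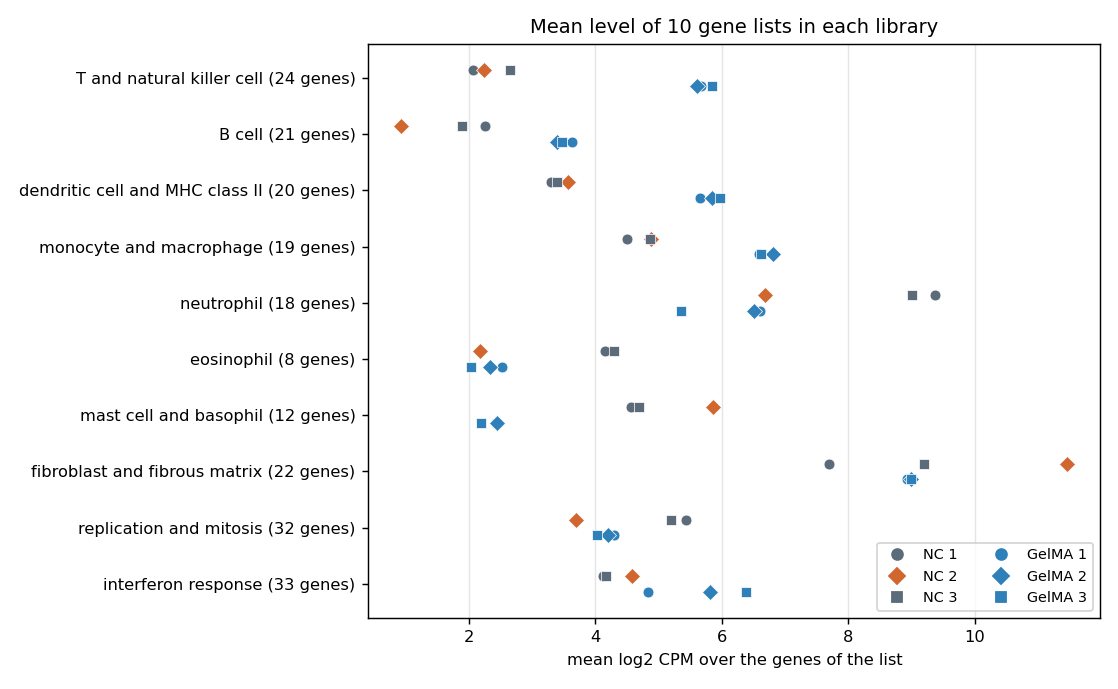
Mean log2 CPM over the tested genes of 10 lists in each library, with NC libraries above and GelMA libraries below each line and NC 2 in orange. NC 2 lies with the other NC libraries for T and natural killer cell, MHC class II and macrophage genes, beside GelMA for neutrophil and eosinophil genes, below every library for replication genes, and far above every library for fibroblast genes.

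The fibroblast and fibrous matrix genes were the list whose median moved most without NC 2. None of 22 genes was called with all libraries, yet the median was -1.47, and without NC 2 it was 0.17 with 1 gene, Postn, called higher. Postn, the matrix protein periostin, was at 87.2, 2836 and 289 CPM in NC and 808, 821 and 692 CPM in GelMA. On average the log2 CPM of the list was 7.69, 11.46 and 9.20 in NC and 8.92, 8.99 and 8.99 in GelMA, so the GelMA libraries were alike and lay between NC 1 and NC 3. The list took 1.48%, 23.2% and 4.38% of counts in NC and 3.85% to 3.95% in GelMA. Leaving out NC 1 instead turned 11 of the 22 into falls. Col1a1, the main chain of type I collagen, was at 3497, 73587 and 9593 CPM in NC and 8563, 8158 and 8342 CPM in GelMA. Its log2 fold change was -1.79 (SE 0.85, adjusted p = 0.201) with NC 2 and 0.35 (adjusted p = 0.541) without it. Col3a1, which encodes type III collagen, was at 1942, 90406 and 8821 CPM in NC and 9285, 9344 and 10327 CPM in GelMA, and its log2 fold change went from -1.80 to 0.84 (adjusted p = 0.275 and 0.319).

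Genes that modify collagen shifted in the same way. Of 18 collagen processing and crosslinking genes, Tgm2 and Plod2 were higher and none was lower, with a median of -0.94 that became 0.55 without NC 2, where 4 were higher. Without NC 1, 7 of the 18 were lower. Tgm2, a transglutaminase, was at 43.2, 32.3 and 40.8 CPM in NC and 122, 150 and 188 CPM in GelMA (log2 fold change 1.98, SE 0.29, and 1.87 without NC 2). Plod2, a lysyl hydroxylase, was at 15.0, 13.2 and 28.4 CPM in NC and 71.2, 74.5 and 81.5 CPM in GelMA (log2 fold change 2.00, SE 0.39, and 1.80 without NC 2). Neither gene was raised in NC 2, and both were called in each fit that left out 1 library.

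Of 30 matrix proteases and inhibitors, Mmp13 was higher and Mmp8, Mmp9, Mmp16, Timp4 and Reck were lower (median -0.84, and 0.22 without NC 2). Mmp13, collagenase 3, was at 7.47, 2.03 and 15.8 CPM in NC and 64.3, 78.6 and 95.3 CPM in GelMA, a rise of 3.23 (SE 0.70, adjusted p = 0.0182), and of 2.77 without NC 2, that was lost without GelMA 2 or GelMA 3. Mmp8, the collagenase of neutrophils, went the other way, at 3086, 494 and 2237 CPM in NC and 441, 316 and 145 CPM in GelMA, a log2 fold change of -2.69 (SE 0.61), and of -3.15 without NC 2, that was lost without NC 3, GelMA 2 or GelMA 3. Without NC 2, Mmp11, Mmp14 and Adam12 were also higher and Adam8 lower. Among 28 receptors that bind collagen or matrix, Mrc1, Itga4, Itgb8, Sdc1 and Sdc4 were higher and none was lower, in both fits. Sdc1, syndecan 1, was at 23.7, 6.73 and 12.9 CPM in NC and 122, 158 and 197 CPM in GelMA (log2 fold change 3.46, SE 0.45, and 3.12 without NC 2). Itgav and Cd44, which bind matrix proteins and hyaluronan, had log2 fold changes of 0.23 and 0.29 and were not called (adjusted p = 0.635 and 0.282), and of 0.60 and 0.24 without NC 2.

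Skeletal lineage genes were called in both directions, and 8.24% of all tested genes were called in either. Of 17 osteoblast and mineralization genes, Runx2 and Spp1 were higher and Smpd3 and Omd lower, with a median of -1.32, of -1.22 without NC 2 and of -0.52 without NC 3. Runx2, the transcription factor that commits cells to bone, was at 44.3, 35.6 and 49.4 CPM in NC and 93.4, 81.5 and 89.7 CPM in GelMA (log2 fold change 1.03, SE 0.16, adjusted p = 0.00393). Without NC 2 its log2 fold change was 0.91, under the fold threshold, and its call held in 5 of the 11 fits that each left out 1 library. Spp1, osteopontin, which macrophages also make, was at 31.0, 8.31 and 39.0 CPM in NC and 166, 186 and 197 CPM in GelMA (log2 fold change 2.81, and 2.39 without NC 2, with the call lost without GelMA 2 or GelMA 3). Smpd3, a sphingomyelinase needed for mineralization, was at 11.2, 359 and 51.4 CPM in NC and 9.82, 7.38 and 7.24 CPM in GelMA, with a log2 fold change of -4.11 with NC 2 and of -1.94 without it. Omd, osteomodulin, moved from -3.17 to -1.80 in the same way, and both were called without each NC library but not without any 1 of the GelMA libraries. Summed, the osteoblast list took 0.0344% to 0.0490% of counts in NC and 0.0432% to 0.0462% in GelMA.

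Of 14 osteoclast genes, Acp5, Atp6v0d2 and Oscar were higher and Mmp9, which neutrophils also store, was lower. Acp5, the tartrate-resistant acid phosphatase, was at 14.2, 17.1 and 10.6 CPM in NC and 33.1, 43.0 and 59.5 CPM in GelMA (log2 fold change 1.69, SE 0.33, adjusted p = 0.0124, and 1.87 without NC 2), and it alone of the rises was called without NC 2, though not without NC 3 or GelMA 3. The bone resorbing protease Ctsk was at 74.9, 625 and 166 CPM in NC and 126, 139 and 131 CPM in GelMA, and its log2 fold change went from -1.13 to 0.13 (adjusted p = 0.262 and 0.831). Of 12 cartilage genes, Acan, Comp and Chad were lower in both fits and none was higher, and 1 was lower without NC 3. Comp, a cartilage matrix protein, was at 7.43, 5.2 and 49.6 CPM in NC and 1.05, 0.607 and 1.23 CPM in GelMA, a log2 fold change of -4.42 (SE 1.03, adjusted p = 0.025), and of -4.88 without NC 2, that was lost without any 1 of the GelMA libraries and without NC 3, the library in which it was highest.

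Skeletal stem and suture progenitor genes split. Of 20 tested, Cd200 and Tnn were higher and Gli1, Six2 and Lepr lower, with a median of 0.03, and of 0.26 without NC 2, where Lepr lost its call and Msx2 was called lower. Cd200, a surface protein used to mark skeletal stem cells and also borne by lymphocytes, was at 15.5, 15.0 and 16.7 CPM in NC and 36.5, 41.0 and 56.1 CPM in GelMA (log2 fold change 1.5, SE 0.31, adjusted p = 0.0152, and 1.47 without NC 2), lost without NC 3, GelMA 2 or GelMA 3. Tnn, tenascin N, was at 51.7, 40.6 and 85.9 CPM in NC and 206, 193 and 147 CPM in GelMA (log2 fold change 1.62, SE 0.33, and 1.40 without NC 2), lost without GelMA 1 or GelMA 2. Gli1, the hedgehog target that marks suture stem cells, was at 5.52, 4.20 and 2.26 CPM in NC and 1.41, 0.728 and 1.37 CPM in GelMA. It had a log2 fold change of -1.76 with NC 2 and of -1.73 without it, but its adjusted p of 0.0454 left the call in only 3 of the 11 fits that each left out 1 library. Six2, a transcription factor of skull mesenchyme, had a log2 fold change of -2.23 (SE 0.46, adjusted p = 0.0143), and of -2.48 without NC 2, with the call lost without GelMA 2 or GelMA 3. The surface markers Eng and Thy1 were not called, with log2 fold changes of -0.47 and -0.13, and of 0.053 and 0.42 without NC 2.

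Growth factor pathway medians lay below 0, and nearer to it without NC 2. Over all tested genes, 5.03% were higher and 3.21% lower, and 7.18% and 6.62% without NC 2. Of 46 TGF-beta and BMP genes 7 were lower (Tgfb3, Bmp4, Gdf10, Chrdl1, Smad6, Smad9 and Ltbp2) and none higher (median -0.64), and without NC 2, 10 were lower and 3 higher (median -0.21), while 15 were lower without NC 1 and 4 without NC 3. Tgfb3, a TGF-beta ligand, was at 63.3, 117 and 88.0 CPM in NC and 17.2, 20.2 and 20.5 CPM in GelMA, a log2 fold change of -2.21 (SE 0.25, adjusted p = 0.000702), and of -1.97 without NC 2. Of 42 Wnt genes, Tcf7 was higher and Lrp5, Lrp6, Sfrp2, Wif1 and Lgr4 were lower (median -0.64, and -0.07 without NC 2). Without NC 2, Lrp5 and Lgr4 lost their calls and other genes gained them, so that 5 were lower and 3 higher. The Wnt rises, 1 and 3 of 42, did not exceed the shares over all genes. Tcf7, a Wnt effector that is chiefly a T cell factor, was at 9.76, 4.79 and 7.12 CPM in NC and 101, 93.2 and 122 CPM in GelMA, a rise of 3.86, and of 3.64 without NC 2. Sfrp2, a secreted Wnt modulator of fibroblasts, was at 284, 923 and 558 CPM in NC and 171, 151 and 169 CPM in GelMA, a log2 fold change of -1.84, and of -1.36 without NC 2, with the call lost without any 1 of the GelMA libraries.

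Of 29 hedgehog, FGF and IGF genes, Igfbp4 was higher and Gli1, Fgfr2, Fgfr3, Igf2, Igf1r, Igfbp2 and Igfbp3 were lower (median -1.44, and -0.36 without NC 2). Falls numbered 6 without NC 2, 13 without NC 1 and 3 without NC 3, and the Igfbp4 call was lost without NC 1, NC 3 or any 1 of the GelMA libraries. Igf2, a growth factor of embryonic and mesenchymal tissue, was at 174, 81.4 and 229 CPM in NC and 11.6, 12.7 and 30.4 CPM in GelMA, a log2 fold change of -3.14 (SE 0.49, adjusted p = 0.00409), and of -3.46 without NC 2. Igfbp3, a carrier of IGFs, was at 26.4, 242 and 90.1 CPM in NC and 16.7, 26.4 and 19.9 CPM in GelMA, and was called with NC 2 in (log2 fold change -2.51, adjusted p = 0.0412) but not without it (-1.47, adjusted p = 0.0842). Among endothelial genes, 1 of 15, the transcription factor Erg, was lower, at 52.9, 19.7 and 44.7 CPM in NC and 7.84, 9.44 and 7.94 CPM in GelMA (log2 fold change -2.22, and -2.54 without NC 2, where 1 other gene of the list was called higher). Over all tested genes, 3.21% were lower with all libraries and 6.62% without NC 2. No pericyte or smooth muscle gene of 14 was called with all libraries, and Rgs5, Higd1b and Cnn1 were called without NC 2, the last as lower.

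Replication and mitosis genes showed the reverse case, falls that were for the most part called only without NC 2. Of 32 tested, 1 was lower with all libraries, Tyms, and the median was -0.78. Without NC 2, 23 were lower, none was higher and the median was -1.17. The mean log2 CPM of the list was 5.44, 3.69 and 5.20 in NC and 4.29, 4.20 and 4.03 in GelMA, so NC 2 lay below every GelMA library and NC 1 and NC 3 above them. Tyms, the enzyme that makes thymidylate, was at 68.3, 37.6 and 65.8 CPM in NC and 28.6, 24.0 and 21.5 CPM in GelMA, a log2 fold change of -1.21 (SE 0.25, adjusted p = 0.0141), and of -1.44 without NC 2, with the call lost without GelMA 2 or GelMA 3. Neutrophil genes were low in the same library, and the part of either in the other was not tested.

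**Figure D4:**
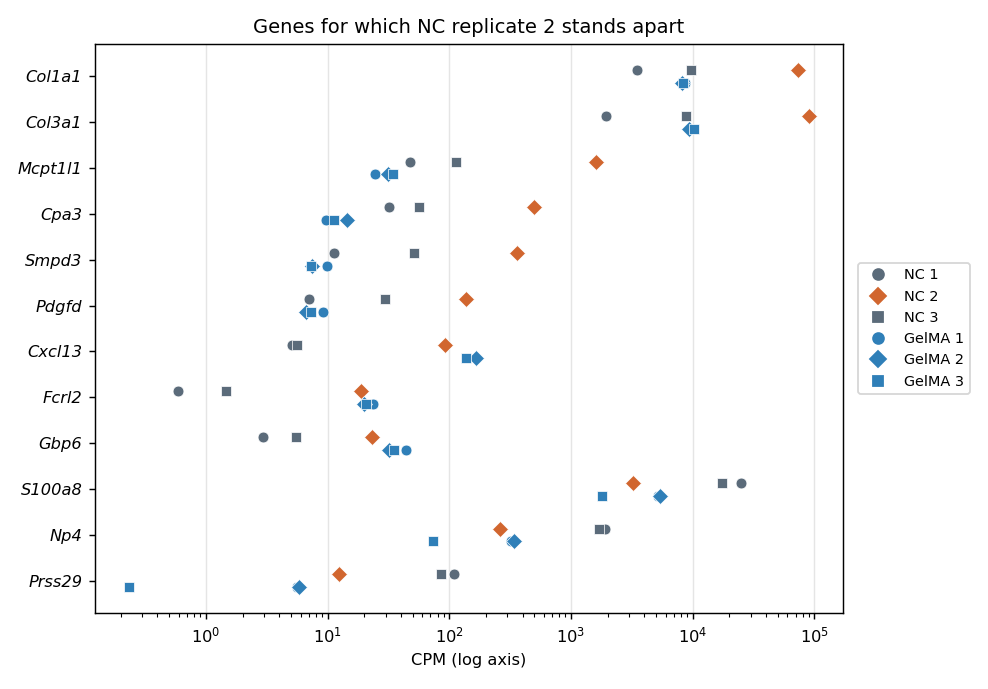
CPM of 12 genes on a log axis, with NC libraries above and GelMA libraries below each line and NC 2 in orange. NC 2 is above every other library for Col1a1 to Pdgfd, and beside GelMA and above the other NC libraries for Cxcl13, Fcrl2 and Gbp6. It lies within the GelMA range, below the other NC libraries, for S100a8 and Np4. For Prss29 it lies between GelMA and the other NC libraries.

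Among well expressed genes, some calls differed between the fit with all libraries and the fit without NC 2. Among rises called only with NC 2 in, the largest were Cxcl11, Igsf7, Irf7, Lilrb3, Oscar and Oasl, and their adjusted p, 0.0273 to 0.047 with NC 2, was 0.0513 to 0.0721 without it. Their log2 fold changes hardly moved, as for Cxcl11, a chemokine induced by interferon, at 3.30 and 3.22. In NC 2 they stood within or near the range of NC 1 and NC 3. These calls held in 2 to 7 of the 11 fits that each left out 1 library. Of these rises only Igsf7 was called both without NC 1 and without NC 3. Among falls called only with NC 2 in, Mcpt1l1, Scg2, Tmod2, Pdgfd and Igfbp3 had their highest level in NC 2 and Obp3 in NC 3. The calls of these falls held in 1 to 6 of the 11 fits, and only Mcpt1l1 was called without NC 3. Obp3, at -5.80 and -5.68, and Scg2, at -4.28 and -3.85, had log2 fold changes of like size with NC 2 and without it. Pdgfd, a growth factor of the PDGF family, was at 7.04, 136 and 29.7 CPM in NC and 9.10, 6.62 and 7.33 CPM in GelMA, with a log2 fold change of -2.91 with NC 2 and of -1.26 without it. Tmod2, tropomodulin 2, went from -4.05 to -1.73.

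Rises called only without NC 2 were led by Cxcl13, Fcrl2, Cxcl9, Pla2g2d, Ifi44l and Gbp6, all of them higher in NC 2 than in NC 1 and NC 3. Cxcl13, the chemokine that gathers B cells into follicles, was at 5.09, 91.3 and 5.63 CPM in NC and 167, 164 and 136 CPM in GelMA. For Cxcl13 the log2 fold change was 2.20 (adjusted p = 0.197) with NC 2 and 4.86 (adjusted p = 0.00304) without it. Fcrl2, an Fc receptor-like gene, was at 0.594, 18.9 and 1.45 CPM in NC and 23.6, 19.8 and 20.6 CPM in GelMA, and its log2 fold change went from 1.61 to 4.36. Falls called without NC 2 but not with all libraries were led by Prss29, Tmem171, Myoc, Rnase2, Np4 and Brs3. All were lower in NC 2 than in NC 1 and NC 3, and Myoc was also called without NC 1. Np4, a defensin of neutrophil granules, was at 1917, 263 and 1690 CPM in NC and 319, 343 and 73.9 CPM in GelMA, with log2 fold changes of -2.40 (adjusted p = 0.0582) and -2.88 (adjusted p = 0.0064).

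Across the 48 lists, leaving out NC 2 moved the medians of fibroblast matrix, collagen processing, hedgehog, FGF and IGF, and matrix protease genes most. The median turned from below to above 0 for the fibroblast matrix, collagen processing, matrix protease, complement, pericyte, immediate early, lysosome, iron and circadian lists, and from above to below 0 for nuclear oxidative phosphorylation genes. Some of these crossings were small, and the median of all tested genes also crossed 0, from -0.05 to 0.05. The oxidative phosphorylation median went from 0.07 to -0.04, the lysosome median from -0.03 to 0.13 and the immediate early median from -0.12 to 0.14. The T and natural killer cell, checkpoint, MHC class II, macrophage, neutrophil, eosinophil and mast cell medians kept their sign with each NC library left out in turn.

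**Figure D5:**
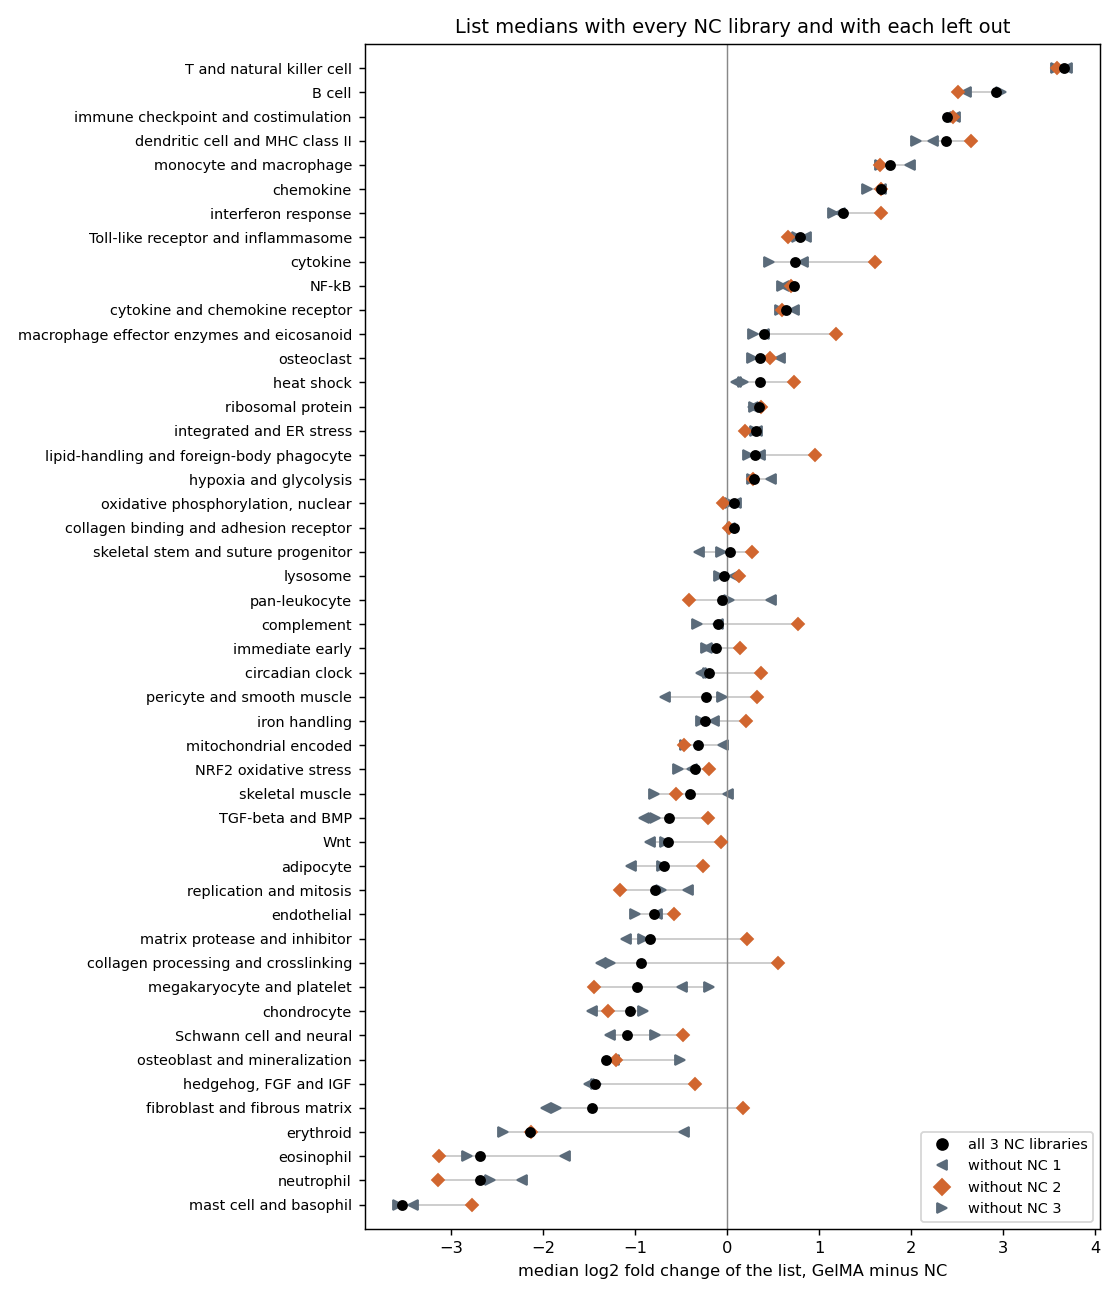
Median log2 fold change of GelMA over NC for each of 48 gene lists, with all 3 NC libraries (black), without NC 2 (orange) and without NC 1 or NC 3 (grey triangles). The T and natural killer cell median of 3.66 and the mast cell and basophil median of -3.54 mark the ends, and the longest shifts without NC 2 are those of fibroblast, collagen processing, hedgehog, FGF and IGF, and matrix protease genes.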

How the data were processed

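RNA of 11 libraries was sequenced, of which 3 NC and 3 GelMA libraries are compared here. Per the labels, the authors used fastp, HISAT2, HTSeq and DESeq with build mRatBN7.2, versions not given in the sources used here. The deposited table holds raw counts per gene, and the authors' FPKM values, which are scaled by gene length and depth, were used for an alternative test and for the rank of Ptprc.

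Counts were fitted for all 11 libraries and 4 groups with edgeR 4.0.16 in R 4.3.3 (TMM, filterByExpr with a minimum count of 10, robust quasi-likelihood test, Benjamini-Hochberg adjustment over 18049 genes), and calls required both a fold above 2 (1 on the log2 scale) and significance at 0.05 after adjustment. SE is the log2 fold change divided by the square root of F. CPM values are TMM scaled. Alternatives used DESeq2 1.42.0, limma 3.58.1, other scalings and filters, a replicate block, and each library left out. Tests were first tried on simulated data. Depth was 22509898 to 30587865 counts, and floors cover counting error only.

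The comparison, its 48 gene lists and the rules were chosen with earlier results of these data known. Genes given with values are the 12 largest rises and falls among genes averaging 3 or more log2 CPM, with non-overlapping groups and a symbol, up to 2 called genes per list and direction by adjusted p, 13 fixed genes, and the 6 largest per direction whose call turned on NC 2. Other genes given with values (RT1-Da, RT1-Db1, RT1-Ba, RT1-Bb, Postn, Ido1, Ifnb1, Tnfsf4) were chosen after their values were seen, and further list genes are named without values. Some named items are not reported here. Groups of 3 libraries were not tested for outliers.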

Additional observations from a re-analysis of the deposited data

How the results depend on the processing

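The counts of 908 higher and 580 lower genes depended on the fit. Higher genes numbered 443 at an adjusted p under 0.01 and 483 with edgeR on NC and GelMA alone. Lower genes numbered 101 and 162 in these fits, 1501 with DESeq2 on all 4 groups and 1155 with DESeq2 on NC and GelMA alone. With limma on log2(FPKM + 1), log2(FPKM + 0.1) and log2(FPKM + 1) without a filter, 201, 279 and 125 were lower. With each library left out in turn, 469 to 1296 were higher and 128 to 1195 lower. NC and GelMA alone without NC 2, a fit added after seeing the data, gave 1149 lower genes. The share of calls that were higher was 61.0% with TMM, 74.1% with library size alone, where the median of all genes was 0.15, 45.6% with DESeq2 on all 4 groups and 83.6% with limma on log2(FPKM + 1). The causes were not tested.

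No called gene changed direction with any 1 NC library left out, nor did any called gene named in the text under the alternatives run, but some uncalled genes did. Without NC 2, in both fits, Ptprc stood at -0.073, Col1a1 at 0.35, Col3a1 at 0.84, S100a4 at 0.47, Eng at 0.053, Thy1 at 0.42 and Ctsk at 0.13, against 0.73, -2.32, -2.36, -0.23, -0.76, -0.47 and -1.58 without NC 1, the other end of their range. In the main fit S100a4, the fibroblast stain of the study, had a log2 fold change of -0.013 (adjusted p = 0.985). It was at 110, 257 and 126 CPM in NC and 137, 178 and 174 CPM in GelMA. S100a4 was at 0.26 with library size alone, 0.30 with limma, 0.026 with the replicate block and 0.04 without GelMA 1. Thy1 was at 0.15 and 0.24 with the first and second of these. A block for the replicate number gave 722 higher and 331 lower genes. The deviations of samples with the same number correlated at 0.055, -0.019 and -0.016, and NC 1 and GelMA 1 were each other's best match. With 3 libraries per group, these values cannot show whether such samples share more than a number. On counts simulated with the spread of these libraries, 69% of 4-fold and 7% of 2-fold changes were recovered. Recovery there was counted on adjusted p and direction, without the fold threshold used for the calls above. Of the 87 calls made on these counts, 11 were false. The simulation gave each gene 1 spread in all groups and drew genes independently. A library that stands apart over many genes, as NC 2 does, was therefore not reproduced. The values limit what was detectable at the simulated spread.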

Other observations

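Genes of red cell precursors, platelets, nerve, muscle and fat were also listed, beside 5.03% of all tested genes higher and 3.21% lower. Of 18 erythroid genes, 4 were lower in GelMA, with Car1 and Tal1 among them, and none was higher (median log2 fold change -2.15), and 6 were lower without NC 2. The erythroid median was -0.47 without NC 1, the NC library with the highest mean of the list. Of the 18 genes, 6 had log2 fold changes above 0. The summed share of the list was not lower in GelMA, at 0.0214%, 0.0046% and 0.0156% of counts in NC and 0.0116%, 0.0347% and 0.0322% in GelMA. Car1, a carbonic anhydrase of red cell precursors, was at 30.9, 4.16 and 11.8 CPM in NC and 2.07, 1.31 and 0.642 CPM in GelMA, a log2 fold change of -3.54 (SE 0.75, adjusted p = 0.0169) that was lost without GelMA 2 or GelMA 3. Of 9 megakaryocyte and platelet genes, Pf4, a chemokine that macrophages also make, was higher, at 5.69, 5.11 and 2.53 CPM in NC and 14.3, 20.8 and 24.0 CPM in GelMA (log2 fold change 2.15, SE 0.32). Most of that list pointed the other way, with 3 of 9 genes above 0 and a median of -0.99. The median was -1.46 without NC 2, where 1 gene was called lower, and -0.49 and -0.20 without NC 1 and NC 3. Of 14 Schwann cell and neural genes, 3 were lower in both fits, and none was called without NC 3. No skeletal muscle gene of 12 and no adipocyte gene of 6 was called with all libraries. Outside the lists, Ecrg4, a secreted neuropeptide precursor, was at 34.6, 24.4 and 53.3 CPM in NC and 1.44, 1.88 and 3.45 CPM in GelMA, a log2 fold change of -4.05 (SE 0.43, adjusted p = 0.000582) that held without each of the 11 libraries.

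In metabolic and stress lists the calls fell on few genes, beside 5.03% of all tested genes higher and 3.21% lower. A single call among 20 or 24 genes is near these shares. Slc2a1, the basal glucose transporter, was at 90.9, 128 and 65.9 CPM in NC and 340, 432 and 546 CPM in GelMA, a rise of 2.21 (SE 0.31), while Slc2a3, the glucose transporter of neutrophils and neurons, was at 1200, 322 and 705 CPM in NC and 231, 198 and 125 CPM in GelMA, a log2 fold change of -2.01 (SE 0.42). They stood among 27 hypoxia and glycolysis genes with 3 rises and 1 fall (6 and 2 without NC 2). Of 17 iron genes 3 rose and 1 fell: Fth1, ferritin heavy chain, rose by 1.51 (SE 0.26) and Slc40a1, the iron exporter ferroportin, had a log2 fold change of -1.93 (SE 0.41). Of 17 clock genes, Per1, Nr1d1 and Ciart were higher and Cry2 lower, with Per1 at 61.8, 45.4 and 58.0 CPM in NC and 147, 147 and 138 CPM in GelMA, and the Cry2 call was lost without NC 2. Of 20 NRF2 genes, Me1 was lower with all libraries (log2 fold change -1.41), and 6 were lower without NC 2. Ern1, a sensor of unfolded proteins, was the 1 rise among 24 stress response genes (1.44, SE 0.16), and Dusp2, a phosphatase of activated leukocytes, that among 24 immediate early genes (2.55, SE 0.36). None of 71 ribosomal protein, 38 nuclear oxidative phosphorylation, 15 heat shock or 13 mitochondrially encoded genes was called with all libraries. Ribosomal protein genes still shifted together by less than 2-fold. Of the 71, 70 had a log2 fold change above 0, as did 8505 of all 18049 genes. Their median was 0.34, and 0.36 without NC 2. They took 2.23% to 2.91% of counts in NC and 3.46% to 3.90% in GelMA.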
